A study of Mus musculus with 6 samples.

Results

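The interferon-inducible GTPases described here are 10 genes of the mouse retina, 6 guanylate-binding proteins (Gbp2, Gbp3, Gbp4, Gbp5, Gbp6 and Gbp7) and 4 immunity-related GTPases (Igtp, Irgm1, Irgm2 and Iigp1). They were taken by gene symbol from the 32285 gene identifiers of a single-nucleus RNA-seq dataset, and each symbol matched 1 identifier. The retinas came from B6.CXB1-Pde6b-rd10/J (rd10) mice, which carry a mutation in the rod phosphodiesterase gene Pde6b in both groups and lose their photoreceptors. At P18 an eye received an intravitreal injection of 20 ng recombinant IL-27 or of saline, and retinas were frozen at P20 for isolation of nuclei. The saline group had 3 libraries, which their labels number 1, 2 and 6, and the IL-27 group had 3, numbered 4, 5 and 10. No uninjected retina was analysed here, so any effect that both injections share cannot be seen. The labels do not say how many animals went into a library, so the spread between libraries may be biological, technical or both.

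The genes lie on 4 chromosomes (GRCm38, GENCODE M21). Gbp5, Gbp7, Gbp3 and Gbp2 follow each other on chromosome 3 between 142493978 and 142638008, and Gbp4 (105115767 to 105139586) and Gbp6 (105270702 to 105293698) lie on chromosome 5. On chromosome 11, Irgm1 spans 48861968 to 48871683, and Igtp (58199556 to 58207591) and Irgm2 (58199618 to 58222782) overlap on the same strand. Iigp1 lies on chromosome 18 (60376027 to 60392634). Gbp4 also overlaps Gbp8 and Gbp9, and Gbp6 overlaps Gm43302, so the division of reads among these neighbours and near-identical copies is uncertain.

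Both families are induced in many cells by type I and type II interferon through STAT and IRF transcription factors. Guanylate-binding proteins are large dynamin-like GTPases that assemble on pathogen vacuoles and bacterial membranes, and several of them take part in inflammasome activation. Immunity-related GTPases act on vacuole membranes, with Irgm1, Irgm2 and Igtp holding effectors such as Iigp1 in check on the membranes of the host cell. IL-27 signals through its receptor chains Il27ra and Il6st to STAT transcription factors.

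Promoters of 7 of the 10 genes were present in the RefSeq table used here (GRCm38.p6, 250 bases before the start site and 50 after it), and Gbp4, Gbp6 and Iigp1 had no entry. They were searched on both strands for the interferon-stimulated response element core, which is a pair of GAAA runs with 2 bases between them and is bound by IRF factors, and for the GAS element TTCNNNGAA, bound by STAT dimers and identical on both strands. The interferon-stimulated response element core was found in 7 of 7 genes, against 3.44% of all 32851 promoters. A GAS element was found in 4 of 7 (Gbp5, Gbp7, Igtp and Irgm2), against 8.30% of all promoters. A gene was counted if any of its promoters held a match, while the background counts single promoters. The core was also found in 5 of 8 other interferon-inducible GTPases, 14 of 31 antiviral, 3 of 12 antigen presentation and 3 of 19 signalling genes. For the GAS element these counts were 3 of 8, 6 of 31, 1 of 12 and 7 of 19. The stretches below are shown because they hold these matches, with the matched letters in capitals and 10 bases on either side where the window allows. They read 5′ to 3′ on the strand of the gene, so a core on the opposite strand appears as a run starting with TTTC.
Gbp2 (chr3:142620594-142620623, plus strand): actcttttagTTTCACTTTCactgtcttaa
Gbp3 (chr3:142559989-142560024, plus strand): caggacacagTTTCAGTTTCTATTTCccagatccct
Gbp5 (chr3:142496684-142496900, plus strand): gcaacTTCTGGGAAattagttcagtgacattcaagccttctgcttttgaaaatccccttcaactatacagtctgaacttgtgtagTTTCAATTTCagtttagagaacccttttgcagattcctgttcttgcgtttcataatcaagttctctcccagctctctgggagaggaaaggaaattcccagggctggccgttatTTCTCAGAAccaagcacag
Gbp7 (chr3:142530220-142530302, plus strand): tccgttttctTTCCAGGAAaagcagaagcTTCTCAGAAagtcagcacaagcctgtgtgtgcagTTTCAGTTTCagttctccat
Igtp (chr11:58199501-58199541, plus strand): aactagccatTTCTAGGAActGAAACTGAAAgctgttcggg
Irgm1 (chr11:48871425-48871460, minus strand): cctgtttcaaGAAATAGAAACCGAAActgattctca
Irgm2 (chr11:58214892-58214932, plus strand): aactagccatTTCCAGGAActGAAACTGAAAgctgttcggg
Counted from the start site, the nearest core lay at position -24 in Irgm1, -34 in Igtp, -39 in Gbp3, -53 in Gbp7, -59 in Gbp2, -64 in Irgm2 and -165 in Gbp5. Gbp3 and Irgm1 each carried 2 overlapping cores, and Gbp3 has a second annotated start whose window held none. A match of letters is a description of the sequence and not a measured binding site.

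A library held between 8968 and 9965 barcodes, with a total of 36678332 to 48260748 UMIs, and 372 barcode sequences occurred in more than 1 library. After filtering, removal of doublets and clustering without the GTPases or other interferon genes, clusters were named from marker genes, giving 5447 Muller nuclei, 1569 microglia, 294 astrocyte, 243 endothelial and 117 pericyte nuclei beside the neurons. One of the 2 Muller clusters, with 679 nuclei, had 8 of the 10 Muller markers and was led by other genes, among them Slc6a13, Fbln1 and Optc, so its name is uncertain and it may not be Muller glia. It made up 20.1, 21.7 and 12.0% of the Muller nuclei in saline replicates 1, 2 and 6 and 1.49, 0.718 and 13.7% in IL-27 replicates 4, 5 and 10. The median log2FC and calls in Muller glia, the sums of the 10 genes and the ratio over pairs are therefore also given without it. The comparisons between cell types and the lists of other interferon genes include it. Saline replicate 2 and IL-27 replicate 5 held 88056 and 85393 UMIs of Xist, the other 4 libraries 7 to 17, so each group had 1 library with and 2 without it. Levels are UMIs scaled to 1e6 (CPM) of the summed nuclei of a cell type. These are not scaled by gene length, so levels were compared between cell types and libraries and not between genes.

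Over all 6 libraries, the GTPases were highest in endothelial cells and glia. Of the 10 genes, 9 had their highest mean in endothelial cells, and Gbp6 had its highest mean in Muller glia. Iigp1 reached 284 ± 118 CPM in endothelial cells (SD, n = 6 libraries) and 227 ± 84.9 CPM in pericytes, against 42.1 ± 25.5 CPM in Muller glia. Gbp4 stood at 174 ± 44.3 CPM in endothelial cells and 24.4 ± 12.9 CPM in Muller glia. For these 2 genes each endothelial library lay above each Muller library, a ratio of the means of 6.74 for Iigp1 and 7.14 for Gbp4. In all, 6 of the 10 genes (Gbp2, Gbp4, Gbp5, Irgm1, Irgm2 and Iigp1) were higher in endothelial cells than in Muller glia of the same retina in 6 of 6 libraries. Gbp6 went the other way in 6 of 6 libraries, with 103 ± 31.1 CPM in Muller glia and 39.4 ± 23.8 CPM in endothelial cells, although the ranges over libraries overlapped.

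**Figure D1:**
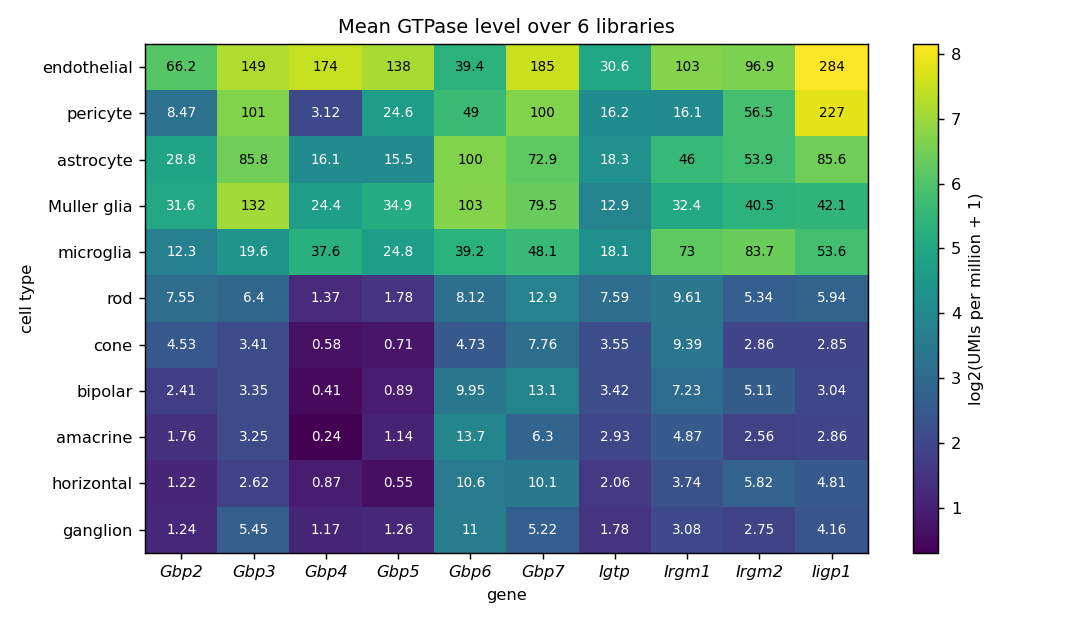
Mean level of each GTPase (columns) in each cell type (rows) over 6 libraries, printed in CPM and coloured by log2(CPM + 1). The upper 5 rows, which are vessels, glia and microglia, stand above the 6 rows of neurons for nearly all genes, and Iigp1 in endothelial cells (284) is the highest value.

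Among glia the genes did not share 1 order. Gbp3, which was at 132 ± 44.6 CPM in Muller glia and 149 ± 51.2 CPM in endothelial cells, reached only 19.6 ± 8.09 CPM in microglia, and each Muller library lay above each microglia library. Irgm1 and Irgm2 showed the reverse order, at 73.0 ± 20.9 and 83.7 ± 40.2 CPM in microglia and 32.4 ± 14.1 and 40.5 ± 16.9 CPM in Muller glia (SD, n = 6 libraries each). For these 2 regulatory GTPases the microglial level was the higher in 6 of 6 libraries, although the ranges over libraries overlapped. Astrocytes and Muller glia were close for Gbp6, at 100 ± 64.1 and 103 ± 31.1 CPM.

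In single neuron types the means of the 10 genes lay between 0.235 CPM (Gbp4) and 13.7 CPM (Gbp6), both in amacrine cells. Summed over all neurons, their levels were 2.37 to 27.1% of those in Muller glia (median 8.89%), and 9 Muller marker genes gave 1.29 to 17.0% (median 7.88%). The marker Vim was set aside after its values were seen, since it stood at 543% of its Muller level in horizontal cells and at 54.4% in all neurons. Of the 10 GTPases 8 lay at or below the highest of these 9 markers, and Igtp (27.1%) and Irgm1 (18.8%) lay above it. The part of free RNA in the neuronal values was not tested. In endothelial cells the GTPases gave 38.1 to 714% (median 238%), each above the 2.98 to 25.8% of the 9 markers. Vim, set aside, stood at 352% there, which only Gbp4, Gbp5 and Iigp1 exceeded. It stood at 136% in microglia and 326% in astrocytes. In microglia the GTPases and the 9 markers had medians of 99.2 and 14.1%, and in astrocytes of 94.4 and 42.2%. In astrocytes, however, all 10 GTPases lay at or below the highest of the 9 markers (206%). In microglia 1 of the 10 lay at or below the highest marker (32.3%). Endothelial cells gave only 88 to 175 UMIs of the 10 genes together per library, which limits the precision of each single value.

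The comparison of IL-27 with saline asked whether a P18 injection had changed these genes. In Muller glia 0 of the 10 GTPases passed an adjusted p of 0.05 (edgeR quasi-likelihood, Benjamini-Hochberg over the cell type), and 0.0286% of the 13982 genes tested did. DESeq2 also called 0, with 0.358% of its genes called, and at an unadjusted p under 0.05 edgeR gave 0 and DESeq2 1 of 10 (Gbp3), where edgeR gave 8.94% and DESeq2 3.42% of all genes. DESeq2 took 24004 genes with no filter on low counts, and 8382 of them had no adjusted p. Its shares are therefore not a like background to those of edgeR. The fitted log2FC was above 0 for 10 of 10 genes, with a median of 0.51 and a range of 0.35 to 0.995, beside a median of 0.00 over all genes tested. The groups overlapped for each of the 10, where 13.5% of all genes did not overlap.

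**Figure D2:**
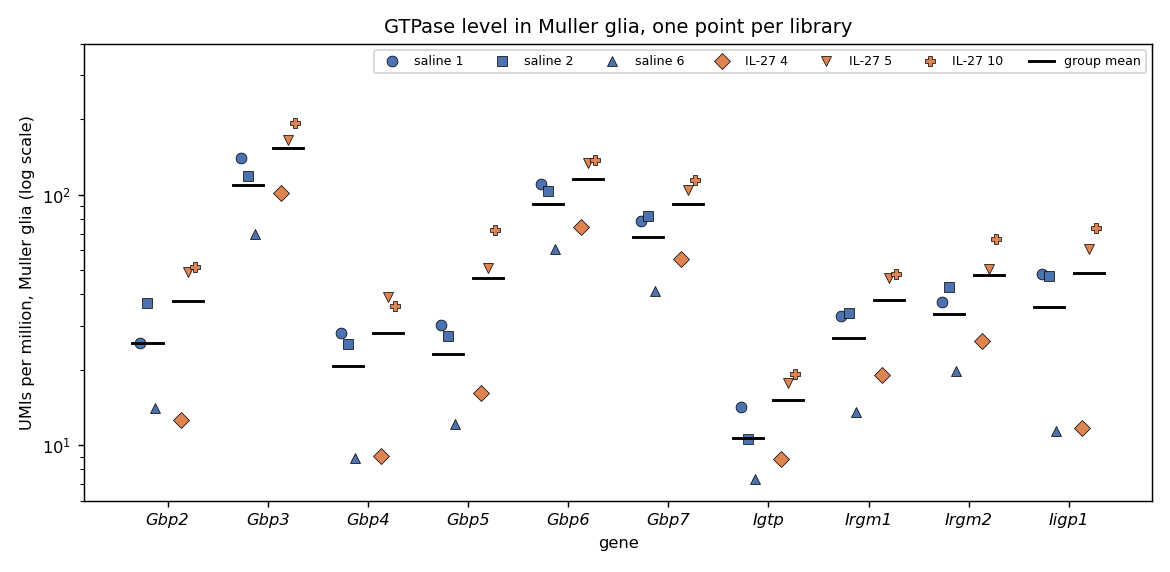
Level of the 10 GTPases in Muller glia on a log axis, in CPM, with 1 point per library (blue for saline, orange for IL-27) and a bar at each group mean. In each gene IL-27 replicates 5 and 10 are the highest, and saline replicate 6 and IL-27 replicate 4 are the lowest.

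Gbp5, which promotes assembly of the NLRP3 inflammasome, had the highest fitted change. It was at 30.2, 27.2 and 12.2 CPM in saline replicates 1, 2 and 6 and at 16.1, 51.1 and 72.4 CPM in IL-27 replicates 4, 5 and 10. IL-27 replicate 4 thus lay below saline replicates 1 and 2, and the group means of 23.2 ± 9.65 and 46.6 ± 28.4 CPM (SD, n = 3 each) overlapped within their spread. The log2FC was 0.995 ± 0.46 (SE), with an edgeR adjusted p of 0.575 (unadjusted 0.0563).

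Gbp3 and Gbp6 had the smallest standard errors of the 10. Gbp3 was at 140, 118 and 69.8 CPM in saline and at 102, 166 and 193 CPM in IL-27 libraries, in the same order. Its log2FC was 0.51 ± 0.26 (edgeR adjusted p = 0.643). Gbp6 read 111, 103 and 60.9 CPM in saline and 74.1, 134 and 138 CPM in IL-27 libraries. Both genes show the pattern of Gbp5, with 2 high libraries and 1 low library after IL-27.

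The immunity-related GTPases varied in the same manner. The effector Iigp1 was at 48.2, 47.2 and 11.4 CPM in saline and at 11.7, 60.6 and 73.4 CPM in IL-27 libraries, so each group had 1 library near the same low level. Its log2FC of 0.44 ± 0.59 had the largest standard error of the 10. The regulator Irgm1 was at 32.9, 33.8 and 13.5 CPM in saline and 19.0, 46.7 and 48.3 CPM in IL-27 libraries. Irgm2 ran from 19.8 to 42.8 CPM in saline and from 26.1 to 66.5 CPM in IL-27 libraries. The remaining 4 genes, Gbp2, Gbp4, Gbp7 and Igtp, had log2FC between 0.43 and 0.56 with adjusted p of 0.713 to 0.882 by edgeR.

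**Figure D3:**
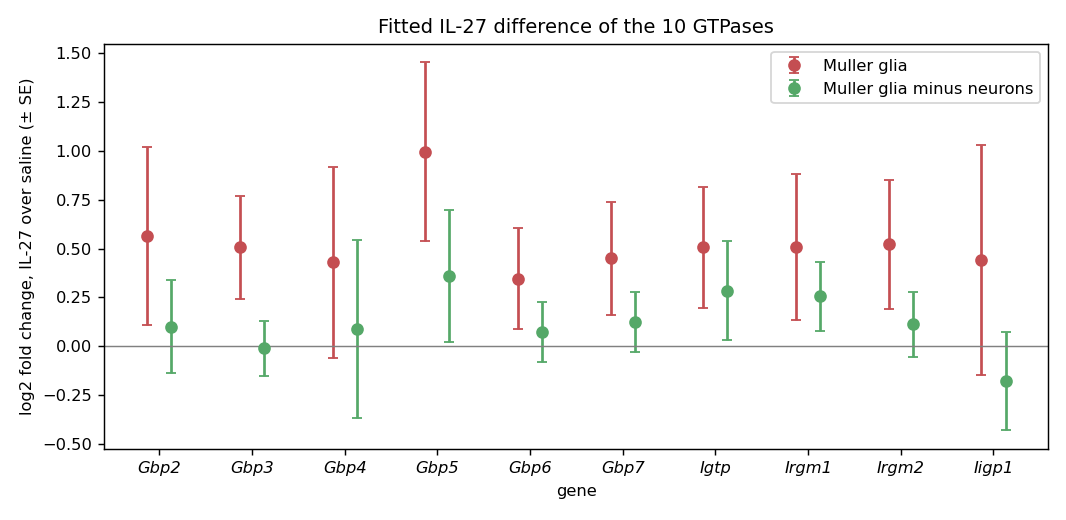
Fitted log2 fold change of each GTPase, IL-27 over saline, with its standard error, in Muller glia (red) and as the difference between Muller glia and the neurons of the same libraries (green). The red points lie between 0.35 and 0.995, and the green points between -0.18 and 0.36 with 8 of 10 above 0.

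Leaving out 1 library moved the size of this shift. The median log2FC in Muller glia fell to 0.24 without saline replicate 6, to 0.31 without IL-27 replicate 5 and to 0.30 without IL-27 replicate 10, and it rose to 0.81 without IL-27 replicate 4. Without the cluster enriched in saline it was 0.43. The sign of each of the 10 genes stayed positive in each of these fits, and 0 were called in any of them.

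The same comparison was made against the neurons of the same libraries, with library as a block, which takes out what a library shares between its cells. Of the 10 genes 0 were called for Muller glia minus neurons by edgeR or DESeq2, and 0 had an unadjusted p under 0.05 in either, where edgeR called 0.0372% of 18807 genes and had 7.64% under the unadjusted limit, and DESeq2 called 0.148% and had 2.76% under that limit. The median difference in log2FC was 0.11 and ran from -0.18 (Iigp1) to 0.36 (Gbp5), with 8 of 10 above 0. The part of free RNA in the neuronal side of this difference was not tested.

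In the other cell types 0 of the GTPases that passed the filter on low counts were called. All 10 passed only in Muller glia. The number tested was 9 in microglia and amacrine cells, 8 in rods and bipolar cells, 5 in endothelial cells and astrocytes, 4 in ganglion cells, 2 in cones, 1 in pericytes and 0 in horizontal cells. Over all genes edgeR called 0.0% in microglia, astrocytes, endothelial cells, cones and ganglion cells, 0.0061% in amacrine cells, 0.0068% in bipolar cells, 0.00755% in rods and 0.111% in pericytes. DESeq2 also called 0 of the GTPases in these cells, and over all its genes it called 0.00834% in rods, 0.00812% in bipolar cells, 0.00388% in amacrine cells and 0.0% in the other 6 types tested. By edgeR an unadjusted p under 0.05 was reached in endothelial cells and rods only. In the other types 0 of the GTPases reached it, where the share of all genes was 3.33% in bipolar cells, 2.79% in amacrine cells, 3.54% in cones, 3.2% in ganglion cells, 3.18% in microglia, 3.71% in astrocytes and 4.68% in pericytes. In endothelial cells, where levels were highest, 0 of the 5 genes tested had a log2FC above 0 (median -0.49, range -1.04 to -0.08). Gbp5 and Gbp7 there had an unadjusted p under 0.05, where 2.85% of all genes did, and both were lower after IL-27, at a log2FC of -1.04 ± 0.40 and -0.73 ± 0.34 (edgeR adjusted p = 0.999 each). Gbp5 gave 20, 17 and 13 UMIs in saline and 11, 8 and 8 UMIs in IL-27 endothelial nuclei, so these differences rest on few molecules, and Iigp1 in the same cells had a log2FC of -0.08 ± 0.41.

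Microglia showed no common direction, with 5 of the 9 genes tested above 0 and a median log2FC of 0.01. Gbp6 was the only gene there whose groups did not overlap, where 7.92% of all genes did not. It was at 55.9, 45.2 and 43.1 CPM in saline and at 20.9, 41.4 and 28.3 CPM in IL-27 microglia, a log2FC of -0.64 ± 0.31 with an edgeR adjusted p of 0.999. In rods the 8 genes tested were all above 0 with a median log2FC of 0.53, and Gbp6 and Irgm1 had an unadjusted p under 0.05, where 3.46% of all genes did. Rod levels of these 2 genes were 8.12 and 9.61 CPM, which is 7.84 and 29.7% of their levels in Muller glia, beside 3.47 to 43.6% for the 9 Muller markers. Vim, set aside above, stood at 119% in rods. The part of free RNA in the rod values was not tested. In horizontal cells the CPM ranges of Gbp7, Igtp and Irgm1 did not overlap, on 0 to 14 UMIs per library and with Gbp7 and Igtp higher and Irgm1 lower after IL-27. The background was 9.62% of the 7653 genes that passed the filter on low counts in these cells, which the GTPases did not pass.

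The libraries also differed within each group, in an order that recurred over genes and cell types. This pattern was noticed after the values were seen and is given as a description. Saline replicate 6 and IL-27 replicate 4 were the lowest pair in Muller glia for 10 of 10 genes. The same pair was lowest for 10 of 10 genes in all neurons pooled, 6 in astrocytes, 3 in endothelial cells, 2 in microglia and 0 in pericytes. How many of all genes had this pair lowest was not counted, so the order cannot be called particular to the GTPases. Free RNA may enter the neuronal values, and its part was not tested. Summed over the 10 genes, Muller glia held 545, 528 and 259 CPM in saline replicates 1, 2 and 6 and 335, 720 and 813 CPM in IL-27 replicates 4, 5 and 10. Each group thus held 1 low library and a pair of higher ones.

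**Figure D4:**
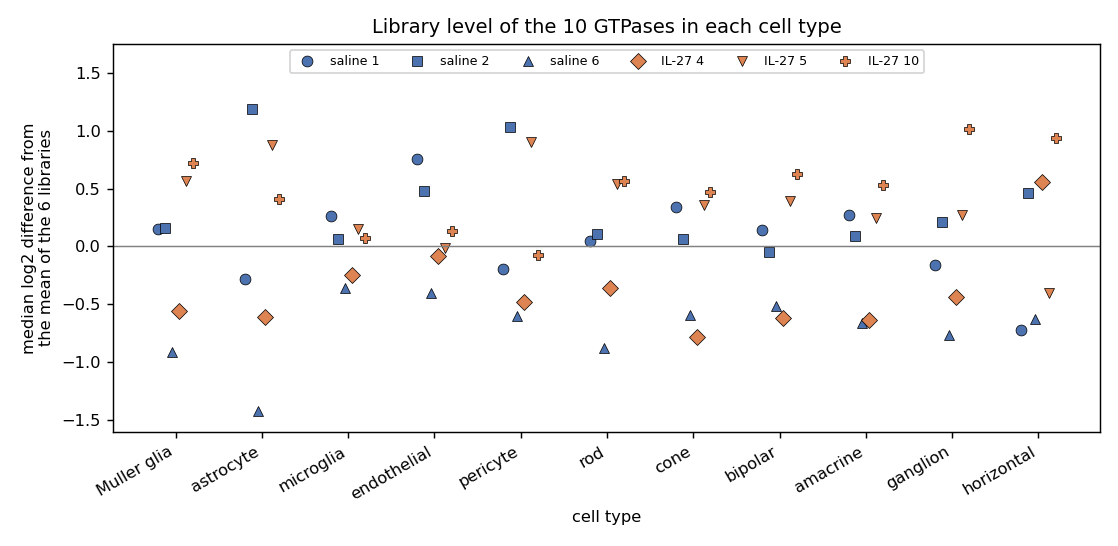
Median over the 10 GTPases of the log2 difference of a library from the mean of the 6 libraries, on log2(CPM + 1), for each cell type. In Muller glia saline replicate 6 (-0.91) and IL-27 replicate 4 (-0.56) lie below 0 and the other 4 libraries above it, and these 2 libraries are also below 0 in each other cell type except IL-27 replicate 4 in horizontal cells.

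Other values were compared with this order. The Muller nuclei of saline replicate 6 and IL-27 replicate 4 had the lowest median depth, at 4161 and 4181 UMIs against 4374 to 4530 in the other 4. Immediate early genes were at 333 CPM in Muller nuclei of saline replicate 6, 110 CPM in IL-27 replicate 4, 53.1 and 91.6 CPM in saline replicates 1 and 2, and 267 and 120 CPM in IL-27 replicates 5 and 10. Pigmented epithelium markers stood at 166 CPM in Muller nuclei of saline replicate 6 and at 48.2 to 63.9 CPM in the other 5 libraries. The 14 markers of T and NK cells, of which 0 to 3 were at 0 in a library, stood at 0.54 and 0.88 CPM in Muller nuclei of saline replicate 6 and IL-27 replicate 4 and at 2.64 to 3.71 CPM in the other 4. These Muller values rest on few UMIs. The T and NK markers gave 197 and 205 UMIs over the whole of saline replicate 6 and IL-27 replicate 4, with 615, 141, 579 and 205 UMIs in saline replicates 1 and 2 and IL-27 replicates 5 and 10, and Ifng itself gave 0 to 2 UMIs in each library. Microglia markers in Muller nuclei ranged from 216 to 263 CPM, with saline replicate 6 the lowest and IL-27 replicate 4 the highest. The part of any of these in the order of the libraries was not tested.

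The wider interferon response was described in Muller glia from lists of related genes. Of 18 other interferon-inducible GTPases listed, 7 were tested, 6 of them with a log2FC above 0 (median 0.28). Gm4951 was at 77.0, 60.0 and 28.7 CPM in saline and 34.9, 101 and 97.2 CPM in IL-27 libraries, and Ifi47, the single gene below 0, was at 0.54 to 4.17 CPM with a log2FC of -0.03. Of 38 antiviral genes 36 were tested and 35 lay above 0 (median 0.35), of 15 antigen presentation genes 15 of 15 (median 0.22), and of 24 signalling genes 21 were tested and 19 lay above 0 (median 0.16). Of these list genes 0 were called by edgeR or DESeq2. An unadjusted p under 0.05 was given by edgeR for Irf8, Parp9, Ifih1, Herc6, Cd74 and Tap1, each with a log2FC above 0, and by DESeq2 for 7 antiviral and 3 antigen presentation genes, where 8.94% of all genes reached it by edgeR and 3.42% by DESeq2.

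Among these, Cd74, the invariant chain of MHC class II, was at 4.09, 3.74 and 4.06 CPM in saline and 4.39, 10.8 and 7.74 CPM in IL-27 libraries (log2FC 0.98 ± 0.34, edgeR adjusted p = 0.435). Irf8 was also low, at 3.51 to 11.3 CPM. The part of free RNA from microglia in the values of Cd74 and Irf8 was not tested. Tap1, a subunit of the peptide transporter, read 37.5, 31.4 and 28.1 CPM in saline and 27.8, 56.1 and 59.4 CPM in IL-27 libraries (edgeR adjusted p = 0.528). Ifih1, a cytosolic sensor of double-stranded RNA, had a log2FC of 0.62 ± 0.26 and an edgeR adjusted p of 0.525.

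Of the IL-27 pathway itself, Stat3 and the shared receptor chain Il6st varied little between libraries, with 195 to 245 CPM for Stat3 and 103 to 111 CPM for Il6st, and their log2FC were 0.07 ± 0.12 and 0.01 ± 0.09. The specific chain Il27ra gave 0 UMIs in the summed Muller nuclei, which allows up to 0.126 CPM at 3 UMIs and covers counting error only, beside 12 UMIs in microglia, 3 in endothelial cells, 3 in ganglion cells, 2 in cones and 1 in amacrine cells.

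Whether the GTPases occurred together in single Muller nuclei was described after thinning each nucleus to 2000 UMIs, which left 5207 nuclei and set aside 240 below that depth. At least 2 of the 10 genes were found in 20.4, 16.3 and 9.07% of nuclei in saline replicates 1, 2 and 6 and in 13.1, 25.3 and 29.5% in IL-27 replicates 4, 5 and 10. Saline libraries averaged 15.2 ± 5.73% and IL-27 libraries 22.6 ± 8.50% (SD, n = 3 each). IL-27 was thus higher by 7.37 percentage points, and the ranges overlapped. The difference was 4.29 points without saline replicate 6, 3.95 without IL-27 replicate 10 and 12.1 without IL-27 replicate 4. Without thinning the means were 33.3 ± 11.2 and 44.2 ± 13.1%.

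If each gene had occurred independently at its own share in a library, 1018 nuclei would have held 2 or more of the genes, and 973 did, a ratio of 0.956 (0.862 to 1.29 over the 6 libraries). The number of genes per nucleus was spread more widely than this total shows. Nuclei with none of the 10 numbered 2715 against 2246 expected, and those with 1 or 2 were fewer than expected. From 4 genes upward there were more than expected, with 190 nuclei against 35.9 expected for 4 or more and 98 against 3.90 for 5 or more. Single nuclei held up to 9 of the 10 genes at this depth.

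**Figure D5:**
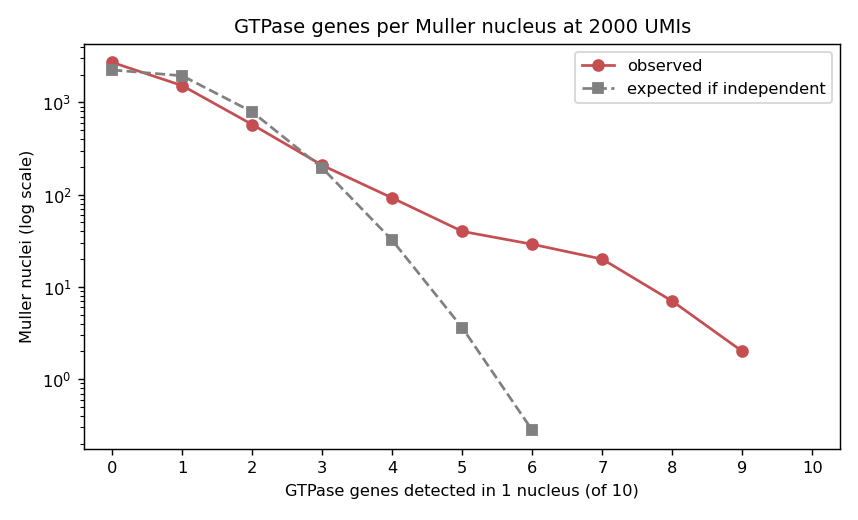
Number of Muller nuclei (log axis) by the number of the 10 GTPases detected in the nucleus at 2000 UMIs, observed (red) and calculated for genes that are independent within each library (grey). Observed and expected cross near 3 genes, where 208 nuclei were observed and 194 expected, and at 5 genes 40 nuclei stand against 3.60.

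The nuclei with 4 or more genes were 3.65% of the thinned nuclei and carried 30.5% of the GTPase UMIs. They made up 3.92, 3.29 and 1.18% of Muller nuclei in saline and 0.908, 6.04 and 6.94% in IL-27 libraries, in the usual order, and so occurred in each library of both groups. Their median depth before thinning was 4832 UMIs against 4333 in nuclei with none of the genes, and their median doublet score was 0.0348 against 0.0222. Microglia markers in them stood at 226 CPM against 234 in nuclei with none of the genes, and endothelial markers at 1448 against 1715 CPM. The endothelial markers Flt1 and Kdr reached means of 1251 and 543 CPM in a cell type other than endothelial cells. Their sum therefore cannot show whether these nuclei held endothelial RNA. The part of depth and of remaining doublets in this group was not tested.

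Counted over the 45 pairs of genes, joint detection was 2.04 times the expected number (1.77 to 2.42 over the libraries), and for each of the 45 pairs the ratio was above 1. The 10 Muller markers among themselves gave 1.03 and GTPases with Muller markers 1.0 by the same count. Several of these markers are frequent, such as Dkk3 in 90.6% and Slc1a3 in 80.6% of the nuclei. A ratio cannot rise far above 1 where a gene is in most nuclei, so these values are no like comparison. The highest pair was Gbp4 with Iigp1, found together in 61 nuclei against 10.9 expected (ratio 5.59). These genes lie on chromosomes 5 and 18 and do not overlap, and the ratio exceeded 1 in 5 of 6 libraries. Gbp4 with Gbp5 (44 nuclei, ratio 5.51) and Gbp2 with Gbp4 (42 nuclei, ratio 5.09) came next. The frequent genes gave lower ratios, such as 1.41 for Gbp3 with Gbp6 in 246 nuclei. At 1000 UMIs the ratio over pairs was 2.39 in Muller nuclei and 2.11 in rods, the latter from 38 nuclei with 2 or more of the genes among 11298 and with a range of 0 to 3.15 over the libraries.

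Other genes were ranked by how often they occurred with any of the 10, among 12104 genes found in at least 1% of the thinned Muller nuclei. The highest was Gbp10, a further guanylate-binding protein that overlaps Gm43302, at 1.73 times the expected number (83 nuclei against 48.0), where the median of all genes was 0.994. A gene equally frequent in each library could not exceed about 2.09, and the limit differs for genes unevenly spread over the libraries. The next were Ifi203 (1.67), the chemokine gene Cxcl10 (1.67), Ifi204 (1.66), Gm16685 (1.62), the nucleic acid sensor Zbp1 (1.59), Gm17268 (1.58), Gm36107 (1.55), the death ligand Tnfsf10 (1.53) and F830016B08Rik (1.53). Of these 10 genes 3 were on the lists above, and the ratio exceeded 1 in 6 of 6 libraries for each but Gm17268 (5 of 6). Gm17268 overlaps Ccl2, Gm16685 overlaps Il7, Cxcl10 overlaps Art3 and Ifi203 overlaps Mndal, so their reads cannot be assigned with certainty. By list the median ratio was 1.40 for 6 other GTPases, 1.25 for 35 antiviral genes, 1.16 for 13 antigen presentation genes and 1.07 for 19 signalling genes, and 0.996 for 5 immediate early genes. Of the list genes under the unadjusted edgeR limit, Herc6, Ifih1, Parp9 and Tap1 had ratios of 1.22 to 1.37. Irf8 had 1.04 and Cd74 0.834. The 10 Muller markers ran from 0.973 to 1.09. Frequent markers are again held near 1, and the rarer Sox9, Vim and Kcnj10 stood at 1.09, 1.01 and 0.973.

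The cluster enriched in saline, whose name as Muller glia is uncertain, had lower levels of the GTPases together. Its nuclei held 238, 291 and 115 CPM of the 10 genes in saline replicates 1, 2 and 6 and 231 CPM in IL-27 replicate 10, and the other Muller nuclei of these libraries held 601, 583, 275 and 882 CPM. Gbp3 was at 8.75 to 30.4 CPM in the cluster and at 76.4 to 215 CPM in the other Muller nuclei of these 4 libraries. Irgm2 did not keep 1 order, at 43.0 against 36.3 CPM and 47.9 against 41.7 CPM in saline replicates 1 and 2, and at 13.4 against 20.5 CPM and 35.0 against 70.3 CPM in saline replicate 6 and IL-27 replicate 10. Gbp2 and Iigp1 were also higher in the cluster in saline replicate 6, at 18.8 against 13.5 CPM and 13.4 against 11.1 CPM. These 2 cluster values rest on 7 and 5 UMIs. Iigp1 was close in saline replicates 1 and 2, at 45.6 against 48.7 CPM and 46.8 against 47.3 CPM. In IL-27 replicates 4 and 5 this cluster had only 10 and 4 nuclei in the sums, too few for values of single genes, and the other Muller nuclei held 336 and 723 CPM of the 10 genes. Without this cluster saline replicate 6 and IL-27 replicate 4 thus still had the lowest sums, and the ratio over pairs was 1.95.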

How the data were processed

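Nuclei of frozen retinas were sequenced in 6 libraries. The deposited values are whole UMI counts per gene and barcode, made by the authors with Cell Ranger (9.0.1 per the labels, 8.0.1 per the file headers) without normalization. No genome build was given in the sources used here, and 99.6% of gene identifiers were found in GENCODE M21. Members and lists were chosen with earlier results of these data known.

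Nuclei entered with UMI totals above 500, 200 or more detected genes and a mitochondrial share below 5%, and doublets were removed with Scrublet (scanpy 1.11.5, expected rate 0.08). Louvain clusters (igraph 0.11.9, resolution 0.25) left out the GTPases and listed interferon genes, and were named from at least 3 markers. The score limits of this naming were set after the clusters were seen, and 2652 nuclei stayed unnamed and 1147 mixed. Nuclei whose log2 UMI total lay more than 2 median absolute deviations off the median did not enter the sums of UMI counts by library and cell type. After filterByExpr (10 counts) and TMM scaling, edgeR 4.0.16 gave quasi-likelihood tests (R 4.3.3), with Benjamini-Hochberg adjustment inside each cell type and a limit of 0.05. DESeq2 1.42.0 was an alternative, run without filterByExpr. Fitted values were rounded to 6 significant digits and the fits tested on simulated data. P-values measure only the spread between libraries. Expected joint detection was taken per library from each gene's share. Named genes were the 10 members, up to 3 genes per list and direction with the smallest p in Muller glia, Stat3, Il27ra and Il6st, and the 10 genes with the highest ratio of joint detection in at least 1% of nuclei. The leading genes of the cluster enriched in saline were named after their values were seen. Protein sequences were not analysed here, and 1 gene that the rule names is not reported here.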

Additional observations from a re-analysis of the deposited data

How the results depend on the processing

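The tests were repeated with DESeq2, with edgeR scaled by DESeq2 size factors or by library totals, with the filter on low counts removed or raised, with all nuclei summed, with doublets kept, with a mitochondrial limit of 1%, with a resolution of 0.5, in Muller glia lacking the cluster enriched in saline, and with each library left out. Under each of them 0 GTPases were called in Muller glia, in the other cell types and for Muller glia minus neurons, and the log2FC of the 10 genes in Muller glia kept its sign in 160 of 160 gene fits (0.04 to 1.39, smallest adjusted p 0.143). These fits reuse the same libraries and are not independent of each other. At a resolution of 0.5 the Muller fit was the same as the main one and could not differ. How many of all genes kept their sign was not counted. Leaving out 1 library moved the median log2FC between 0.24 (saline replicate 6 absent) and 0.81 (IL-27 replicate 4 absent), the difference in the share of nuclei with 2 or more genes between 3.95 (IL-27 replicate 10 absent) and 12.1 percentage points (IL-27 replicate 4 absent), and the ratio of joint detection between 0.935 and 0.985. The others gave medians of 0.43 to 0.51 and share differences of 3.19 (1000 UMIs) to 10.9 (not thinned). The ratio for 2 or more genes was 1.19 at 1000 UMIs and 0.839 without thinning. Chosen after seeing the data were ratios for 3 or more genes (1.73), 4 or more genes (5.30) and the 45 pairs (2.04), which count other nuclei by construction. The number of all genes called in Muller glia moved from 3 higher and 1 lower to 119 higher and 329 lower without IL-27 replicate 10, to 51 and 209 with no filter and to 26 and 60 with DESeq2, and the cause was not tested. No paired analysis was possible because the groups share no replicate number. The SD of the median shift between libraries of a group was 0.66 on the log2 scale, against a median log2FC of 0.51.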
